A study of Mus musculus with 12 samples.

Results

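Nudt7 and 6 other genes of coenzyme A (CoA) turnover were followed through acute liver injury: the CoA-degrading Nudix hydrolases Nudt7, Nudt8 and Nudt19, the synthesis enzymes Pank1, Pank3 and Coasy, and the thioesterase Acot12. The genes were selected on group differences measured in these same livers, among them the lower Nudt7 after APAP and its difference between treatments, and their symbols were matched to Ensembl identifiers in the gene counts of 24187 mouse genes. Of the 7 genes, 6 matched a row and all 6 passed the low-count filter. Nudt8 matched none, and no value is given for it. A gene that lies over it on the same strand, Gm49405, shares 741 of its 1135 exon bases and held 35 to 76 counts per library, but its counts cannot stand in for Nudt8.

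By the labels the livers came from 12 C57BL/6J mice (one passage of the study's methods writes C57BL6/JOlaHsd), aged 10 to 12 weeks, in 3 groups. The 3 control mice were untreated according to the labels. The 5 vehicle mice received acetaminophen (APAP, paracetamol), at 350 mg/kg by the labels, and then PBS vehicle, and the 4 hAAM mice received the same APAP dose and then human alternatively activated macrophages (hAAMs), a cell therapy grown from human monocytes. The study's methods describe a fast before APAP and an intravenous injection of cells or vehicle 16 h after it, with livers taken at 32 or 36 h by different passages. The study presents its RNA sequencing beside a severe injury model that was given a higher APAP dose, so the dose these livers received is not settled. The methods also mention saline given after a fast, while the labels call these control mice untreated, so whether they were fasted is unclear. If they were not, fasting and APAP cannot be told apart against them, and fasting is a condition to which several CoA genes are known to respond. The cells are human and the host mice are immunocompetent, which limits how long the cells stay. The labels do not say whether replicates of a group came from separate experiments, so errors measure the spread between these livers only.

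CoA carries acyl groups through fatty acid oxidation, the citric acid cycle and lipid synthesis. Cells build it from pantothenate (vitamin B5) by a short pathway that the pantothenate kinases control, and they break it down in peroxisomes and mitochondria through Nudix hydrolases that split CoA or acyl-CoA. In liver the CoA pool is known to grow in fasting and shrink on feeding, with synthesis and degradation genes moving in opposite directions.

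Total counts ranged from 60870399 to 74056505 in control, 50859599 to 61826952 in vehicle and 47391650 to 55379420 in hAAM libraries, and the shallowest value of any of the 6 genes was 884 counts. Levels are given as CPM, counts scaled to a common library size after TMM. Library vehicle 3 and library hAAM 4 were nearly the same: over genes with at least 100 counts in the pair, their differences were 1.19 times the counting noise, against 2.64 to 6.89 times in the other 35 pairs of injured livers. Whether they come from 1 liver, or whether 1 of their labels is wrong, could not be settled, and the group sizes of 5 and 4 count them as separate livers. The members' differences and the counts of genes called are given with all 12 livers and then without both of these libraries. The sex-linked genes pointed the same way in every library: Ddx3y held 3064 to 4281 counts and Xist held 10 to 149. In bulk liver RNA, fewer cells of a type and less RNA per cell cannot be told apart.

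Nudt7 stood far from the other members. Nudt7 (ENSMUSG00000031767, GRCm38 chr8:114133557-114154739, plus strand) encodes the peroxisomal hydrolase that cleaves CoA and medium-chain acyl-CoAs. It measured 394, 404 and 506 CPM in the control livers. In the vehicle livers 1 to 5 it measured 43.2, 33.7, 106, 33.8 and 26.3 CPM. In the hAAM livers 1 to 4 it measured 96.2, 83.1, 128 and 117 CPM. Every injured liver lay far below every control liver, 4 of the 5 vehicle livers lay below all hAAM livers, and the remaining one was vehicle 3, the library that nearly matched hAAM 4. The group means were 434 ± 62.3 CPM (SD, n = 3) in control, 48.6 ± 32.7 (n = 5) in vehicle and 106 ± 20.1 (n = 4) in hAAM livers. Nudt7 in vehicle livers was thus at 11.2% of the control mean and in hAAM livers at 24.4%.

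On the log2 scale, Nudt7 differed from control by -3.16 (SE 0.376) in vehicle and by -2.04 (SE 0.394) in hAAM livers. Of the 22581 genes fitted, 67 had a lower log2 fold change than Nudt7 in vehicle against control and 157 in hAAM against control. Without the near-identical libraries the differences were -3.66 (SE 0.2) and -2.08 (SE 0.21). These comparisons are among those known when the genes were chosen, so their values describe Nudt7 and no test is read from them. Both comparisons use the same 3 control livers.

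**Figure D1:**
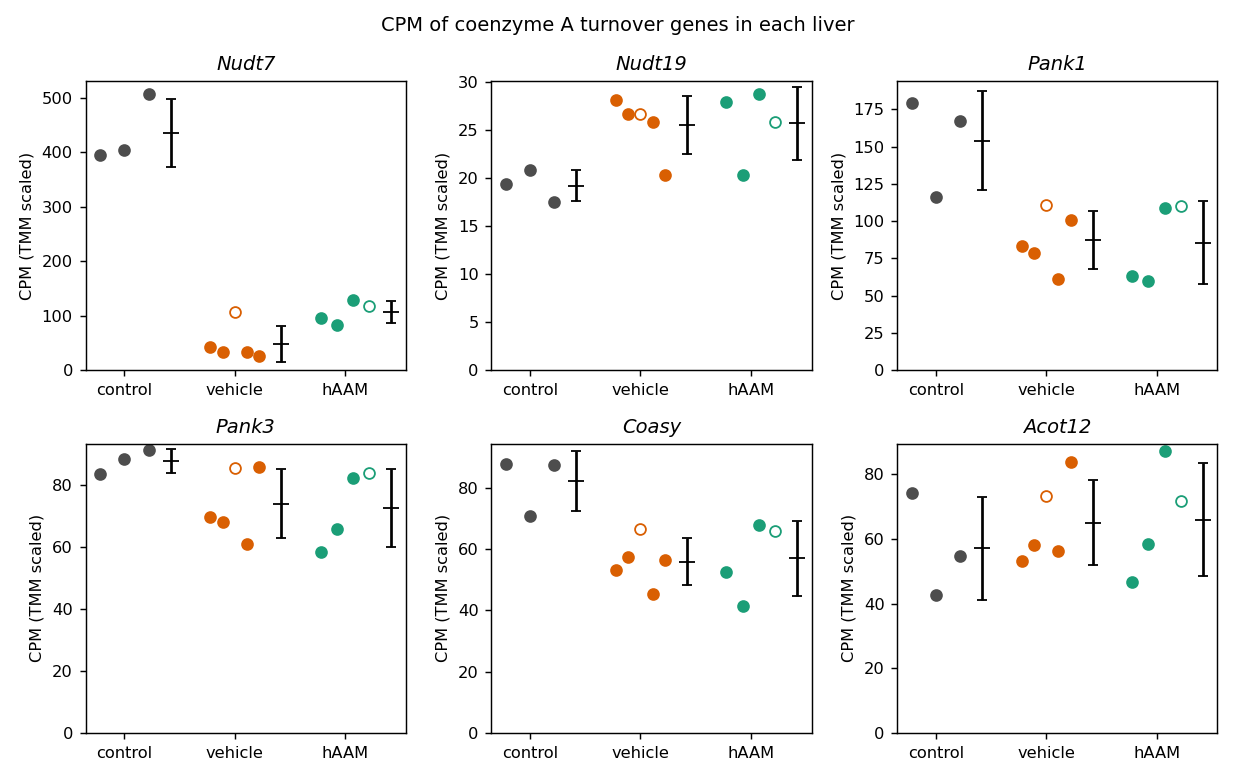
CPM (y axis, linear from 0) of the 6 genes in each liver, by group (x axis). Points are livers, open points are the near-identical libraries vehicle 3 and hAAM 4, and the bar beside each group is the mean ± SD. Nudt7 lies at 394 to 506 CPM in control livers and at 26.3 to 128 CPM in injured ones, while the other 5 genes shift much less.

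The promoter windows are shown because Nudt7, Pank1 and Nudt19 differed in direction or size after APAP. Each runs from 250 bases before to 50 bases after a gene start, as listed in RefSeq for GRCm38.p6, where 6 of the 7 genes, all but Coasy, were matched to at least 1 window. Nudt7 has a pair of overlapping windows there, of which the one at chr8:114133368-114133667 (plus strand) is printed. Pank1 has windows at chr19:34879406-34879705 and chr19:34877868-34878167, both on the minus strand and printed in that order. Nudt19 has a window at chr7:35555879-35556178 on the minus strand. Capitals mark matches to any of 6 motifs, searched on both strands: the TATA box TATAAA, the CCAAT box CCAAT, the GC box GGGCGG, the E-box CACGTG, the nuclear receptor half-site AGGTCA and the NRF1-type site, which is GCGCA followed directly by TGCGC. No 2 marked matches overlap.
Nudt7: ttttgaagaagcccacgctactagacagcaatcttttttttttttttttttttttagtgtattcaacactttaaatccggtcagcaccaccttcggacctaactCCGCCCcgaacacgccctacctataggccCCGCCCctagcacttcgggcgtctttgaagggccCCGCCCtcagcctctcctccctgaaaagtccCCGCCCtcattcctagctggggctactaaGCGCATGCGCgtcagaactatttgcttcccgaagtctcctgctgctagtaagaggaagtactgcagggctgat
Pank1 first start: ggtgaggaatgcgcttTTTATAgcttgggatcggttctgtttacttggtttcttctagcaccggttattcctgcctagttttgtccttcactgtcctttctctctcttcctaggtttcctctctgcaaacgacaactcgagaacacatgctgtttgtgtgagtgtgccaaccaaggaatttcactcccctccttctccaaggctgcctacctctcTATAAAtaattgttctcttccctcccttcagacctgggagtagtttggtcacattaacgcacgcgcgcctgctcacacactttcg
Pank1 second start: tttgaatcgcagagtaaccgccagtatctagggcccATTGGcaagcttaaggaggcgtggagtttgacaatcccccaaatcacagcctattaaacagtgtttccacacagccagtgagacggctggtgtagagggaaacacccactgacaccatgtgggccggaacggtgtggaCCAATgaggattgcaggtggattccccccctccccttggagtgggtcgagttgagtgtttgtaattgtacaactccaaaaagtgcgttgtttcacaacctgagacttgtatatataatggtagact
Nudt19: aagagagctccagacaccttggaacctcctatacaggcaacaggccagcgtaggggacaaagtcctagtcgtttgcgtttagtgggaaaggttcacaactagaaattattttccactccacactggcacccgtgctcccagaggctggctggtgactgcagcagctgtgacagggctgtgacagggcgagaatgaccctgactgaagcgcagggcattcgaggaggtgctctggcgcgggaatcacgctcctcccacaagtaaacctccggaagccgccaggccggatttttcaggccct
The Nudt7 window held 4 GC boxes, read as CCGCCC on this strand, and 1 NRF1-type site. GC boxes were found in 35.7% of all 32851 windows of this length, and the NRF1-type site in 0.971%. The Pank1 windows held no GC box. The first had 2 TATA boxes, a motif in 13.6% of windows, and the second had 2 CCAAT boxes, a motif in 37.4%. None of the 6 motifs was found in the Nudt19 window. Elsewhere, the windows of Nudt8, Pank3 and Acot12 held 1 GC box each, and those of Nudt8 and Pank3 held 1 CCAAT box each. The half-site AGGTCA, found in 16.3% of windows, was matched once in Acot12, and the E-box, found in 7.15%, in no window of these 6 genes. These matches describe letters in the windows and were not tested against the changes in level.

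Nudt19 went the other way. Nudt19 (ENSMUSG00000034875, chr7:35547185-35556304, minus strand) encodes a second peroxisomal CoA hydrolase, best known from kidney. It measured 19.4, 20.8 and 17.5 CPM in control livers. In vehicle livers 1 to 5 it measured 28.1, 26.7, 26.7, 25.8 and 20.3 CPM. In hAAM livers 1 to 4 it measured 27.9, 20.3, 28.8 and 25.8 CPM. Levels were above all control livers in 7 of the 9 injured livers, and vehicle 5 and hAAM 2 fell within the control range. The log2 difference from control was 0.41 (SE 0.128) in vehicle and 0.42 (SE 0.133) in hAAM livers. Leaving out the near-identical libraries gave 0.4 (SE 0.145) and 0.42 (SE 0.155). An antisense gene, B230322F03Rik, shares 938 exon bases with Nudt19, but it held 84 counts in all 12 libraries together.

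Because CPM grows with transcript length, the order of the 2 hydrolases was compared per length. As RPKM, the CPM per kilobase over all annotated exon bases, Nudt7 averaged 77.3 and Nudt19 7.18 in control livers. In vehicle livers the means were 8.66 and 9.53, and Nudt7 lay below Nudt19 in 4 of 5 livers, vehicle 3 being the exception. In hAAM livers the means were 18.8 and 9.57, and Nudt7 lay above Nudt19 in 4 of 4 livers. The 4-of-5 count was the same when the longest coding transcript of each gene set the length (3543 bases for Nudt7, 2298 for Nudt19). With the shortest coding transcript of Nudt7, 707 bases, Nudt7 lay above Nudt19 in every liver, so the reversed order in vehicle livers rests on which transcript is counted.

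Among the synthesis genes, Pank1 and Coasy were lower in injured livers by similar amounts in both APAP groups. Pank1 (ENSMUSG00000033610, chr19:34806940-34879455, minus strand) encodes a pantothenate kinase, which catalyses the committed step, and it is a known target of the fasting regulator PPARα. It measured 179, 116 and 167 CPM in control livers. In vehicle livers 1 to 5 it measured 83.6, 78.8, 111, 61.5 and 101 CPM. In hAAM livers 1 to 4 it measured 63.3, 59.5, 109 and 110 CPM. No injured liver reached the lowest control, though the gap between control 2 at 116 CPM and vehicle 3 at 111 CPM was small. The log2 difference from control was -0.82 (SE 0.243) in vehicle and -0.85 (SE 0.256) in hAAM livers. Leaving out the near-identical libraries gave -0.91 (SE 0.241) and -0.99 (SE 0.262).

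Coasy (ENSMUSG00000001755, chr11:101082565-101086619, plus strand) encodes CoA synthase, which carries out the last steps of the pathway. It measured 87.8, 70.8 and 87.5 CPM in control livers. In vehicle livers 1 to 5 it measured 53.1, 57.3, 66.6, 45.4 and 56.3 CPM. In hAAM livers 1 to 4 it measured 52.6, 41.3, 67.8 and 65.8 CPM. All injured livers lay below all control livers. The log2 difference from control was -0.56 (SE 0.159) in vehicle and -0.53 (SE 0.167) in hAAM livers, and -0.62 (SE 0.16) and -0.6 (SE 0.172) without the near-identical libraries.

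Pank3 and Acot12 overlapped between all groups. Pank3 (ENSMUSG00000018846, chr11:35769484-35791285, plus strand) encodes another pantothenate kinase, one inhibited by acetyl-CoA. It ranged from 83.6 to 91.2 CPM in control, from 60.8 to 85.8 in vehicle and from 58.3 to 83.9 in hAAM livers. Its log2 difference from control was -0.25 (SE 0.139) in vehicle and -0.27 (SE 0.146) in hAAM livers, and -0.3 (SE 0.138) and -0.35 (SE 0.149) without the near-identical libraries. With scaling by library size alone these turned to 0.1 and 0.02, beside a median over all genes of 0.36 and 0.32.

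Acot12 (ENSMUSG00000021620, chr13:91741512-91786148, plus strand) encodes a cytosolic thioesterase that releases acetate and CoA from acetyl-CoA. It ranged from 42.5 to 74.1 CPM in control, from 53.3 to 83.9 in vehicle and from 46.6 to 87.1 in hAAM livers. The control livers alone spanned most of this range. Its log2 difference from control was 0.19 (SE 0.225) in vehicle and 0.21 (SE 0.235) in hAAM livers, and 0.15 (SE 0.252) and 0.17 (SE 0.269) without the near-identical libraries. An antisense gene, 4833422C13Rik, shares 149 exon bases with it and held 2211 counts in all libraries, fewer than Acot12 held in any 1 of them.

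At an edgeR FDR under 0.05, 4 of the 6 members were called in vehicle against control, beside 29.8% of all 22581 genes. The count was also 4 of 6 in hAAM against control, beside 20.7% of all genes. In each comparison Nudt7, Pank1 and Coasy were lower and Nudt19 was higher. Scaling by library size alone ended the calls of Pank1 (FDR 0.0802 in vehicle and 0.0624 in hAAM livers) and Coasy (0.168 and 0.158), with log2 differences of -0.48 and -0.57 for Pank1 and -0.22 and -0.24 for Coasy. Without control 1, and likewise without control 3, Nudt7 was the 1 member called in either comparison. A fit of only hAAM and control livers also called Nudt7 alone. Lower calls made up 14.8% of all genes in vehicle against control and 9.96% in hAAM against control, and higher calls 15% and 10.7%. The members were chosen with these comparisons known, so nothing is read from their count. CPM ranges lay wholly below control for Nudt7, Pank1 and Coasy in both comparisons, as held for 17.3% of genes in vehicle and 14.2% in hAAM livers, and wholly above control for no member, against 17.5% and 14.3%. Nudt19 was no longer called in either comparison once vehicle 3 and hAAM 4 were left out.

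**Figure D2:**
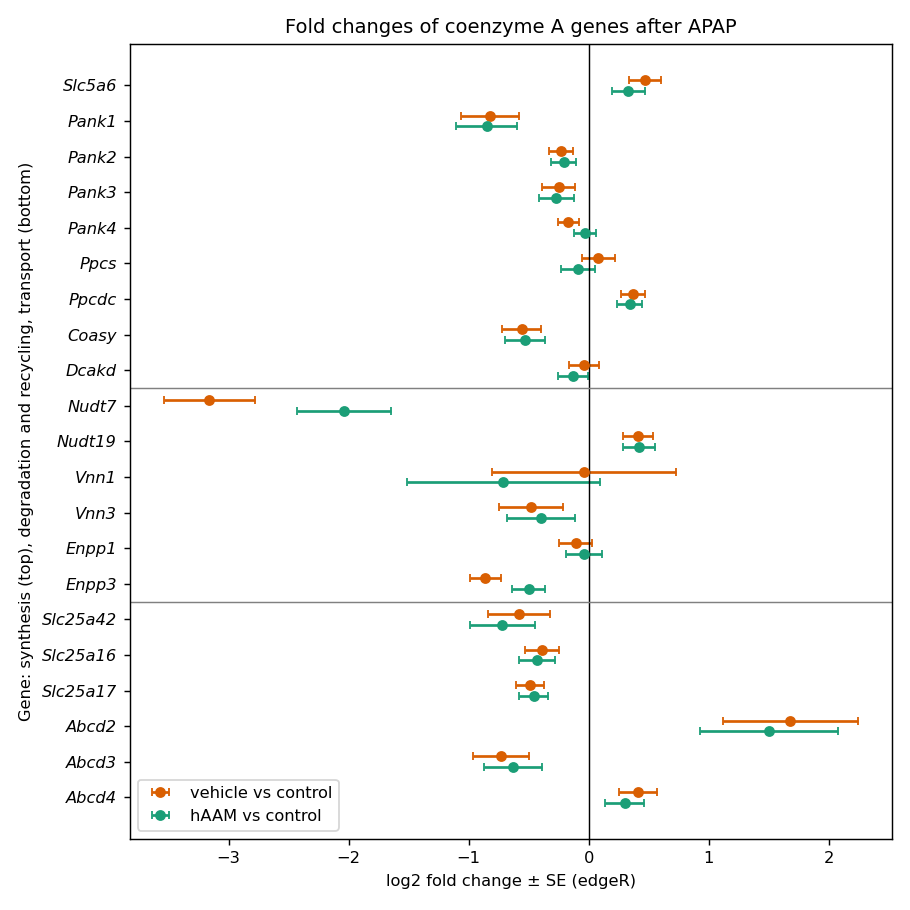
log2 fold change with its standard error (x axis, edgeR, all 12 livers) for 21 genes of CoA synthesis, degradation and recycling, and transport (y axis), in vehicle and in hAAM livers against control. Nudt7 lies at -3.16 and -2.04. Of the other genes, Abcd2 lies farthest from 0, at 1.68 and 1.5 on the side of higher levels.

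Livers were compared member by member, after subtracting each gene's mean log2 CPM over the 12 livers. The mean absolute difference between 2 genes' profiles was 0.153 for Pank3 and Coasy, 0.166 for Pank1 and Coasy and 0.235 for Pank1 and Pank3. Between Nudt7 and any other member it was 0.903 to 1.21, which also reflects the larger change of Nudt7. Within the hAAM group, Nudt7 and Coasy ordered the livers alike, with hAAM 3 highest, then 4, 1 and 2, and Pank1 differed from this order only in hAAM 4 at 110 and hAAM 3 at 109 CPM. Within the vehicle group, vehicle 3 was highest for Nudt7, Pank1 and Coasy, but the lowest liver was vehicle 5 for Nudt7 and vehicle 4 for Pank1 and Coasy. Vehicle 5 had the lowest Nudt7 of all livers, at 26.3 CPM, but the highest Pank3 of the injured livers, at 85.8 CPM. hAAM 2 had the lowest Pank1 and Coasy of all livers, at 59.5 and 41.3 CPM, with Nudt7 at 83.1 CPM, above all vehicle livers other than vehicle 3.

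The genes whose profile over the 12 livers was most like that of Nudt7, among 11166 candidate genes averaging 2 or more on the log2 CPM scale, were Adh6-ps1, Keg1, Cyp7b1, Ugt2b1 and 4732465J04Rik. Their mean absolute log2 differences from Nudt7 were 0.301, 0.365, 0.384, 0.39 and 0.41. Cyp7b1 encodes an oxysterol hydroxylase, and Ugt2b1 a glucuronosyltransferase. Cyp7b1 averaged 219 ± 99.4 CPM (SD, n = 3) in control, 28 ± 9.55 (n = 5) in vehicle and 56.4 ± 21.2 (n = 4) in hAAM livers. The means of all 5 genes in vehicle livers were 12.6% to 19.6% of control, and in hAAM livers 22.4% to 39.1%. Ugt2b1 and Adh6-ps1 have close relatives in the genome, among which the counting could have divided reads.

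The other members had nearer neighbours, but this distance grows with the size of a gene's own changes, which were smaller for them. Pank1 was most like Acsf2 (0.0956), an acyl-CoA synthetase, Acaa1a (0.106), a peroxisomal thiolase, and Mgst1 (0.115). Coasy was most like Amacr (0.0447), a racemase of branched acyl-CoAs, Rhbdd3 (0.0573) and Mgam (0.0606). Pank3 was most like Tmem143 (0.0585), Tspan31 (0.064) and Dennd5b (0.0651). Nudt19 was most like Zfyve21 (0.0773), Mug2 (0.0892) and Tmem63a (0.0948), and Acot12 most like Soat2 (0.105), Klhl21 (0.113) and Fbxo21 (0.122).

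The next question was how Nudt7 compared between the treatments. Between hAAM and vehicle livers, 0 of the 6 members and 0% of the 22581 genes were called by edgeR at an FDR under 0.05, with 1133 genes, or 5.02%, at an unadjusted p under 0.05. DESeq2 called 1 gene (0.00443%) on the same 12 livers, which was no member. The log2 difference of Nudt7 was 1.12 (SE 0.344), hAAM above vehicle, and its ranges of 83.1 to 128 and 26.3 to 106 CPM overlapped through vehicle 3. For the other 5 members the log2 difference lay between -0.03 and 0.03. Those 5 members' ranges overlapped as well. Over all genes, ranges did not overlap for 0.709% with hAAM higher and 0.691% with hAAM lower.

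Without vehicle 3 and hAAM 4, Nudt7 measured 26.3 to 43.2 CPM in vehicle livers (34.2 ± 6.92, SD, n = 4) and 83.1 to 128 CPM in hAAM livers (102 ± 22.9, n = 3). The ranges did not overlap, as held for 4.32% of all genes with hAAM higher and 3.94% with hAAM lower. The log2 difference was 1.58 (SE 0.189). On these 10 livers edgeR called 0 genes, and DESeq2 called 88 genes, 0.392% of those fitted, with Nudt7 among them. With vehicle 3 alone left out, edgeR called 1 gene, 0.00444% of those fitted, and that gene was Nudt7, at a log2 difference of 1.63 (SE 0.174). With hAAM 4 alone left out it called 0 genes and the difference was 1.07 (SE 0.383). This contrast was also known when Nudt7 was chosen, so the calls describe how the value depends on the libraries and are no independent test. In the near-identical libraries themselves, Nudt7 in hAAM 4 was 1.1 times its CPM in vehicle 3 (6263 and 5480 counts), and the other 5 members were at 0.966 to 0.994 times.

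**Figure D3:**
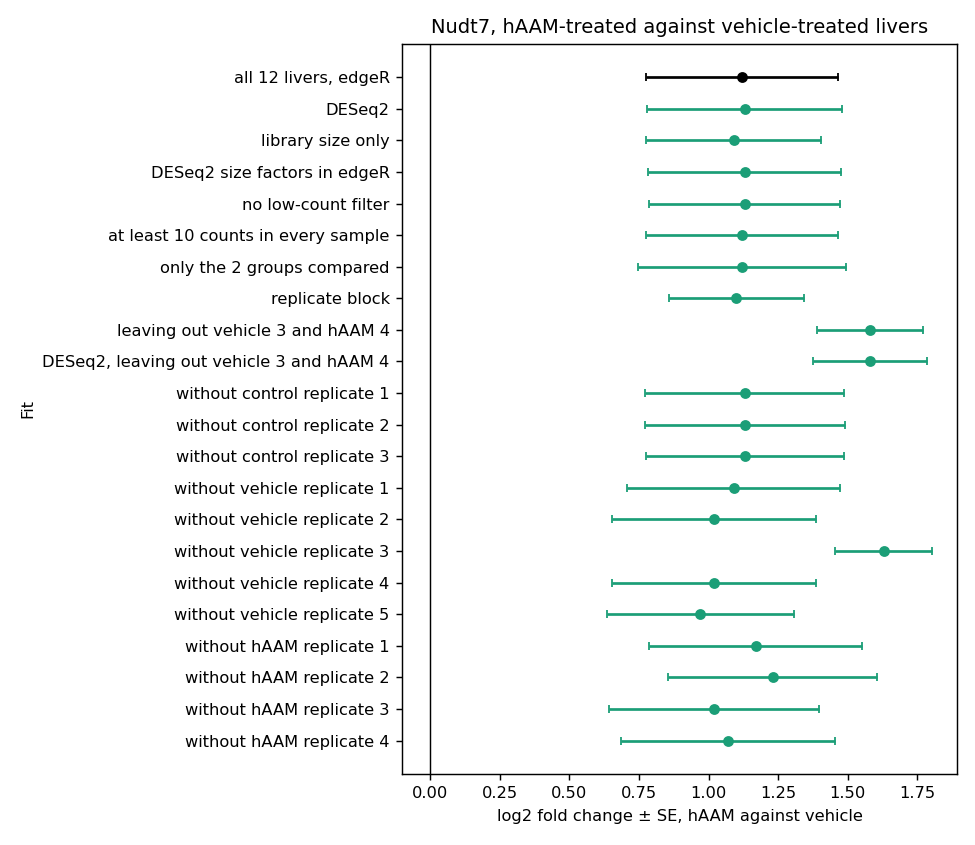
log2 difference of Nudt7 between hAAM and vehicle livers with its standard error (x axis) under each fit (y axis). Each fit gave a difference above 0, from 0.97 without vehicle 5 to 1.63 without vehicle 3, and the fits that left out vehicle 3 gave the highest values.

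Pericentral hepatocytes, the cells around the central vein that APAP injures first, were followed through 10 marker genes. The labelled tissue carried its defining markers: the summed CPM of 12 hepatocyte markers was 128000 to 158000 in control, 114000 to 142000 in vehicle and 120000 to 154000 in hAAM livers. By edgeR, 1 of these 12 rose and 2 fell in each comparison with control. Hpx, the heme carrier hemopexin, was at -1.18 (SE 0.259, FDR 0.0059) and -0.88 (SE 0.274, edgeR FDR 0.0403), Fgb, a fibrinogen chain, at -1.05 (FDR 0.0012) and -0.99 (FDR 0.00393), and Ahsg, fetuin A, at 0.51 (FDR 0.0377) and 0.61 (FDR 0.028). Without the near-identical libraries 2 fell in vehicle livers, 1 fell in hAAM livers and none rose. Scaling by library size alone gave 2 rises and 2 falls, and 2 rises and 1 fall. The summed pericentral CPM was 4730 to 7350 in control livers, 485 to 1860 in vehicle livers and 640 to 3380 in hAAM livers, and 485 to 1230 and 640 to 3380 without the near-identical libraries. By edgeR, 9 of 10 pericentral markers fell in vehicle against control and 7 of 10 in hAAM against control, or 8 and 6 without those libraries, and 8 and 7 with scaling by library size alone, where 1 rose in vehicle livers. None rose in the other fits named here, none was at 0 counts in any liver, and none was called between hAAM and vehicle. Glul, the glutamine synthetase of the innermost hepatocyte layer, fell by 4.27 on the log2 scale in vehicle livers (SE 0.244, edgeR FDR 2.48e-06) and by 4.17 in hAAM livers (SE 0.266, FDR 1.4e-05). Its log2 differences were -4.21 and -4.04 without those libraries.

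Nudt7 was lower in the same livers as these markers. Of the markers, Cyp2e1 held the most counts in every liver, so the pericentral sum follows it most. Its counts were 162460 to 209438 in control, 16163 to 67139 in vehicle and 17371 to 127238 in hAAM livers. Within the hAAM group Nudt7 and this sum ordered the livers alike, with hAAM 3 highest, followed by hAAM 4, 1 and 2. hAAM 3 had 128 CPM of Nudt7 beside a pericentral sum of 3380 CPM. Within the vehicle group vehicle 3 was highest in both, while the order of the other 4 livers differed. Vehicle 5 had 26.3 CPM of Nudt7 beside a pericentral sum of 1230 CPM. hAAM 2 had 83.1 CPM of Nudt7 beside a sum of 640 CPM, and hAAM 1 had 96.2 CPM beside 916 CPM. Vehicle 3 and hAAM 4 had the same sum of 1860 CPM beside 106 and 117 CPM of Nudt7. The part of pericentral cell loss in the Nudt7 levels was not tested.

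**Figure D4:**
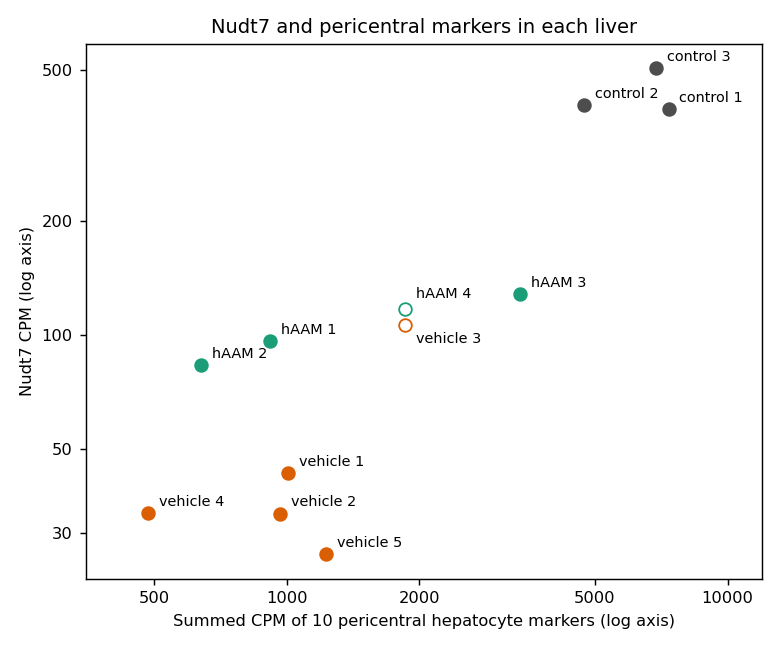
Nudt7 CPM (y axis, log) against the summed CPM of 10 pericentral markers (x axis, log) in each of the 12 livers. Cyp2e1 held the most counts of these markers in every liver. Open points are the near-identical libraries. Control livers lie at the upper right. Vehicle livers 1, 2, 4 and 5 lie at 26.3 to 43.2 CPM of Nudt7, below hAAM livers 1 and 2 at sums that fall in the same range.

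Some markers of other cell types were higher after injury, beside 15% of all genes called higher in vehicle and 10.7% in hAAM livers. Of 12 macrophage and monocyte markers, 5 rose in each APAP group against control and none fell, with sums of 279 to 315 CPM in control, 355 to 585 in vehicle and 355 to 601 in hAAM livers. Without the near-identical libraries 6 and 7 rose, and with scaling by library size alone 9 rose in each group. Of 10 endothelial and stellate markers, 5 rose in vehicle and 4 in hAAM livers, with sums of 442 to 537, 562 to 806 and 519 to 924 CPM. Without those libraries 5 rose and 1 fell in each group, and with scaling by library size alone 7 and 5 rose. Of 5 neutrophil markers tested, none was called, and their sums were 6.97 to 28.1, 10.6 to 44.3 and 11.5 to 40.6 CPM. Of 10 periportal markers, 1 rose and 1 fell in vehicle livers, 2 rose in hAAM livers, and their sums overlapped between all groups. Scaling by library size alone gave 4 rises and 1 fall in vehicle livers and 3 rises in hAAM livers. No marker with a row was at 0 counts in any liver, and the part of these cell types in the members' levels was not tested.

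In the rest of the CoA pathway, 6 of the 17 synthesis, degradation and transport genes outside the members (35.3%) were called in vehicle against control, beside 29.8% of all genes, and 3 of 17 (17.6%) in hAAM against control, beside 20.7%. Leaving out the near-identical libraries gave 5 and 1. The counts of synthesis genes called, members included, fell to 0 when control 3 (vehicle livers) or control 1 (hAAM livers) was left out. Outside the members, 2 of 6 synthesis genes rose in vehicle livers and 1 of 6 in hAAM livers, and none fell. With scaling by library size alone, 3 of all 9 synthesis genes rose in vehicle and 2 in hAAM livers and none fell. Ppcdc, the decarboxylase in the middle of the pathway, measured 8.81 to 8.93 CPM in control, 10.3 to 12.9 in vehicle and 9.76 to 12.5 in hAAM livers. It rose by 0.37 (SE 0.099, edgeR FDR 0.0148) and 0.34 (SE 0.103, FDR 0.037) on the log2 scale. The rise in hAAM livers was 0.28 without the near-identical libraries, at an FDR of 0.0689. Slc5a6, the cell's multivitamin transporter that takes up pantothenate, measured 4.22 to 5.24 CPM in control and 5.26 to 7.72 CPM in vehicle livers, a rise of 0.47 (SE 0.131, edgeR FDR 0.0183). In hAAM livers its log2 difference was 0.33 at an FDR of 0.105. Pank2, Pank4, Ppcs and Dcakd were not called, with log2 differences from -0.23 to 0.08 in vehicle livers and from -0.21 to -0.03 in hAAM livers.

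Among degradation and recycling genes outside the members, Enpp3 alone was called. Enpp3 encodes a cell-surface pyrophosphatase that can split extracellular nucleotides. It measured 119, 103 and 110 CPM in control livers. In vehicle livers 1 to 5 it measured 58.4, 58.6, 68.2, 66.5 and 54.4 CPM. In hAAM livers 1 to 4 it measured 74.6, 70.9, 101 and 66.1 CPM. It fell by 0.86 on the log2 scale in vehicle livers (SE 0.128, edgeR FDR 0.000861) and by 0.5 in hAAM livers (SE 0.136, FDR 0.0228). Without the near-identical libraries the fall in vehicle livers was 0.89 at an FDR of 0.00126, and in hAAM livers the log2 difference was -0.43 at an FDR of 0.0547. Its hAAM and vehicle ranges overlapped through hAAM 4 alone, at 66.1 CPM below vehicle 3 and vehicle 4. With vehicle 3 and hAAM 4 left out, hAAM livers lay above vehicle livers. Of the 22 genes in the synthesis, degradation and transport lists, this held for 2, or 9.09%, Enpp3 and Nudt7, beside 4.32% of all genes. Nudt7 was chosen with this contrast known, so nothing is read from that share. Of the 17 genes outside the members, Enpp3 was the only such gene.

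Vnn1 and Vnn3, the vanins that recycle pantetheine to pantothenate, and Enpp1 were not called. Vnn1 varied widely within groups, from 5.8 to 31.8 CPM in control livers, from 5.2 to 40.1 in vehicle livers and from 4.79 to 21.1 in hAAM livers. Its 2 highest values were vehicle 5 at 40.1 CPM and control 1 at 31.8 CPM. Vnn3 was 40 to 62.2 CPM in control livers, 27.4 to 51.3 in vehicle livers and 27 to 51.4 in hAAM livers.

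Of 7 transport genes, 2 fell and 1 rose in vehicle livers, and 1 fell in hAAM livers. Slc25a17, the peroxisomal carrier of CoA and related cofactors, was 33.3 to 48.6 CPM in control, 24 to 32.9 in vehicle and 28.6 to 30.7 in hAAM livers. It fell by 0.49 (SE 0.116, edgeR FDR 0.00839) and 0.46 (SE 0.122, FDR 0.0207) on the log2 scale. The FDR was 0.0229 in vehicle and 0.0547 in hAAM livers without the near-identical libraries. Abcd3, a peroxisomal importer of acyl-CoAs, fell by 0.73 in vehicle livers (SE 0.23, edgeR FDR 0.0312) and was at -0.63 in hAAM livers (FDR 0.0868). Abcd2, a related importer of very-long-chain acyl-CoAs, rose by 1.68 in vehicle livers (SE 0.561, edgeR FDR 0.0401) from 3.22 to 14.8 CPM in control to 8.97 to 48.1 CPM, and its difference in hAAM livers was 1.5 (FDR 0.0824). Without the near-identical libraries Abcd2 was no longer called (FDR 0.0668), while Abcd3 was called in both groups. With scaling by library size alone, 3 transport genes rose in each group and none fell, and the calls of Slc25a17 and Abcd3 were lost. The mitochondrial carriers Slc25a42 and Slc25a16 were at -0.58 and -0.39 in vehicle livers and -0.72 and -0.43 in hAAM livers, and neither was called.

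**Figure D5:**
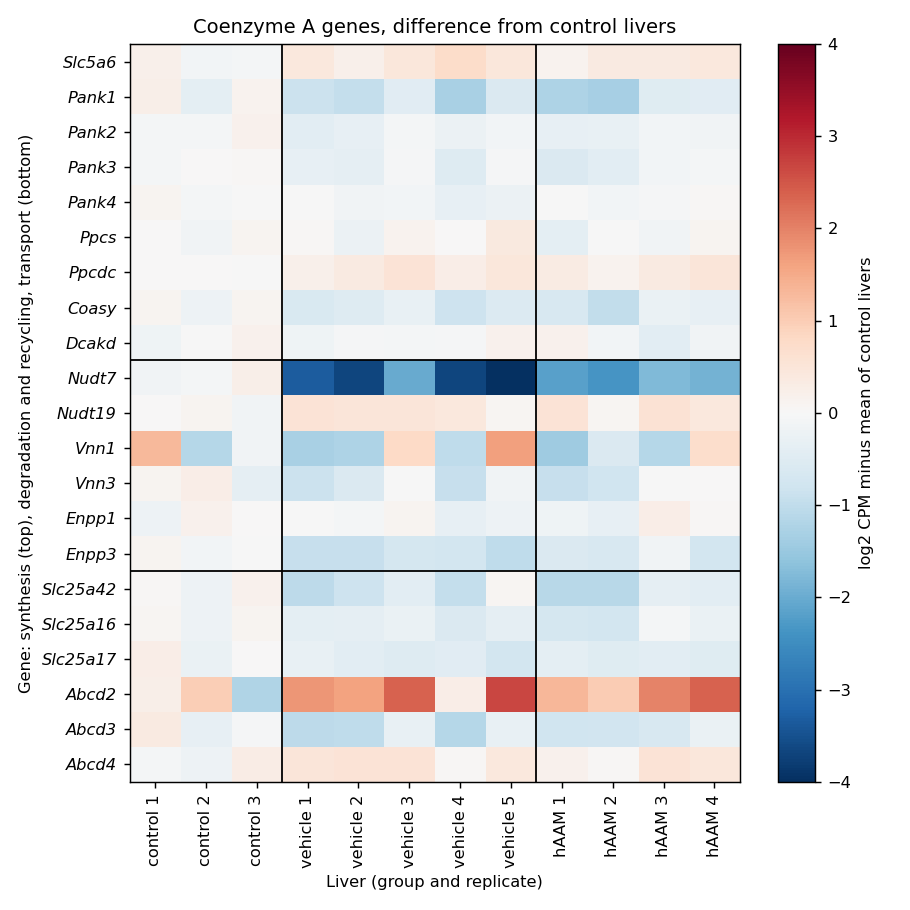
log2 CPM minus the mean of the control livers (colour) for 21 CoA genes (rows: synthesis, degradation and recycling, transport) in the 12 livers (columns, by group). Nudt7 is the row farthest below 0 in every injured liver. Vnn1 and Abcd2 vary within each group, the control livers included.

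Enzymes that make and use acyl-CoA were described through wider lists, beside a median log2 difference over all genes of 0.01 in vehicle and 0.02 in hAAM livers. Of 14 thioesterases tested, Acot12 among them, 4 rose and 1 fell in vehicle livers, and 2 rose and 1 fell in hAAM livers, with medians of 0.64 and 0.08. With vehicle 3 and hAAM 4 left out the counts were 4 and 1, and 2 and 0. Acot9, a mitochondrial thioesterase, rose by 1.48 (SE 0.278, edgeR FDR 0.00273) and 1.22 (SE 0.285, FDR 0.0123). Baat, a relative of the thioesterases that joins bile acids to amino acids, fell by 0.9 (SE 0.177, FDR 0.00338) and 0.6 (SE 0.188, edgeR FDR 0.0414), the second of which was not called without the near-identical libraries (FDR 0.0864). Acot2, a mitochondrial thioesterase with near-identical relatives, rose by 2.23 in vehicle livers (SE 0.752, edgeR FDR 0.0419) and was not called in hAAM livers (1.08, FDR 0.329).

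Of 17 acyl-CoA synthetases, 2 rose and 6 fell in vehicle livers, and 2 rose and 2 fell in hAAM livers, with medians of -0.54 and -0.45. These counts were the same without vehicle 3 and hAAM 4. Acss1, the mitochondrial acetyl-CoA synthetase, rose by 1.68 (SE 0.348, edgeR FDR 0.00447) and 1.89 (SE 0.359, FDR 0.00497). Its levels were very low, at 0.152 to 0.551 CPM in control, 0.932 to 1.72 in vehicle and 1.06 to 1.65 in hAAM livers. Acss2, the cytosolic counterpart of Acss1, was at 115 to 203 CPM in control livers. Acss2 fell by 1.2 in vehicle livers (SE 0.356, edgeR FDR 0.0247). In hAAM livers Acss2 was at -0.78 with an FDR of 0.161, and at -0.98 with an FDR of 0.0389 without the near-identical libraries. Slc27a5, the bile acyl-CoA synthetase, fell by 1.15 in vehicle livers (SE 0.281, edgeR FDR 0.0101) and was not called in hAAM livers (-0.73, FDR 0.102). Slc27a1, a fatty acid transport protein, rose by 0.83 (SE 0.145, edgeR FDR 0.00188) and 0.78 (SE 0.15, FDR 0.00537).

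Of 14 genes of acetyl-CoA supply and use, 1 rose and 5 fell in vehicle livers, and 3 fell in hAAM livers, with medians of -0.33 and -0.21. Without vehicle 3 and hAAM 4, 6 and 4 fell and none rose. Acacb, the acetyl-CoA carboxylase that restrains mitochondrial fatty acid entry, fell by 2.81 (SE 0.48, edgeR FDR 0.0017) and 2.55 (SE 0.515, FDR 0.00653). Fasn, fatty acid synthase, fell by 1.88 in vehicle livers (SE 0.417, edgeR FDR 0.00626). In hAAM livers Fasn was at -1.31 with an FDR of 0.055, and at -1.55 with an FDR of 0.00931 without the near-identical libraries. Acat1, a mitochondrial thiolase, rose by 0.7 in vehicle livers (SE 0.236, edgeR FDR 0.0426), was not called without those libraries (FDR 0.0626), and was not called in hAAM livers (0.57, FDR 0.119).

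The peroxisome, where Nudt7 and Nudt19 act, was followed through its own lists. Of 17 genes of peroxisomal beta-oxidation, 1 rose and 5 fell in vehicle livers, and 1 rose and 2 fell in hAAM livers, with medians of -0.54 and -0.42. With those 10 livers that exclude vehicle 3 and hAAM 4, 7 and 4 fell and none rose. Scp2, which holds the thiolase of branched substrates, fell by 1.07 (SE 0.22, edgeR FDR 0.00426) and 0.75 (SE 0.234, FDR 0.0409). Acox2, the oxidase of branched chains and bile acid precursors, rose by 0.46 (SE 0.15, edgeR FDR 0.0361) and 0.52 (SE 0.157, FDR 0.035), and both calls were lost without those libraries (FDR 0.0731 and 0.0742).

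Of 15 peroxisome biogenesis genes, 6 fell in vehicle and 5 in hAAM livers and none rose, with medians of -0.21 and -0.29. Without vehicle 3 and hAAM 4, 5 and 4 fell. With scaling by library size alone, 2 rose and 1 fell in vehicle livers and 1 rose and 1 fell in hAAM livers, with medians of 0.14 and 0.01, so the direction of this list depends on the scaling. Pex6 fell by 0.75 (SE 0.131, edgeR FDR 0.00198) and 0.61 (SE 0.139, FDR 0.0113). Pex26, which anchors Pex6 to the peroxisome, fell by 0.59 (SE 0.158, edgeR FDR 0.0154) and 0.68 (SE 0.167, FDR 0.0153), calls that scaling by library size alone ended (FDR 0.183 and 0.0706). These falls are shallow beside that of Nudt7 at -3.16 and -2.04. Of 17 mitochondrial beta-oxidation genes, Cpt2 alone was called, falling by 0.49 (SE 0.153, edgeR FDR 0.0294) and 0.52 (SE 0.161, FDR 0.0394), and the medians were -0.05 and -0.1. Cpt2 was also called in both without vehicle 3 and hAAM 4, and in neither with scaling by library size alone (FDR 0.39 and 0.242).

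Of 20 targets of PPARα, a list that holds Pank1, 1 rose and 3 fell in vehicle livers, and 3 fell in hAAM livers, with medians of 0.04 and -0.34. These counts were the same without vehicle 3 and hAAM 4. With scaling by library size alone, 4 rose and 2 fell in vehicle livers and 1 rose and 2 fell in hAAM livers, with medians of 0.38 and -0.05, so the balance in vehicle livers depends on the scaling. Cyp4a14, a fatty acid hydroxylase, rose by 4.01 in vehicle livers (SE 1.3, edgeR FDR 0.0352) and was not called in hAAM livers (3.4, FDR 0.0775). Cyp4a12a, a male-type member of the same family, fell by 1.67 (SE 0.46, edgeR FDR 0.0177) and 1.56 (SE 0.491, FDR 0.0415), the second of which was not called without the near-identical libraries (FDR 0.0603). The Cyp4a genes are close relatives, among which reads could have been divided. Of 19 other Nudix hydrolases tested, 1 rose and 4 fell in vehicle livers, and 2 rose and 2 fell in hAAM livers, with medians of 0.06 and 0.05. Without vehicle 3 and hAAM 4, 1 of 18 rose and 2 fell in vehicle livers, and 2 rose and 2 fell in hAAM livers. Nudt18 rose by 0.65 (SE 0.149, edgeR FDR 0.00718) and 0.59 (SE 0.154, FDR 0.0205). Nudt12, a peroxisomal NADH and decapping hydrolase, fell by 0.44 (SE 0.109, edgeR FDR 0.0112) and 0.42 (SE 0.115, FDR 0.0233), and Nudt13 fell by 0.47 (SE 0.111, FDR 0.00808) and 0.36 (SE 0.117, FDR 0.0484). All 3 were also called in both groups without vehicle 3 and hAAM 4, at log2 differences of 0.71 and 0.61, -0.49 and -0.47, and -0.55 and -0.36 for Nudt18, Nudt12 and Nudt13. With scaling by library size alone, 11 of the other Nudix hydrolases rose in vehicle and 7 in hAAM livers and none fell, and Nudt12 and Nudt13 were not called. None of the genes in these CoA, peroxisome, PPARα and Nudix lists was called by edgeR between hAAM and vehicle livers, on all livers or without the near-identical libraries.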

How the data were processed

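RNA from about 10 mg of frozen liver per mouse was depleted of ribosomal RNA and made into directional libraries. The authors trimmed reads with cutadapt 4.6, aligned them to GRCm38 with STAR 2.7.1a and obtained gene counts with summarizeOverlaps and Ensembl release 100. The strand setting is not given in the sources used here. The deposited table holds raw, unnormalized read counts for each gene. Symbols, positions and exon lengths came from GENCODE M21 of the same assembly, which named 24128 of 24187 genes.

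Counts were filtered with edgeR 4.0.16 filterByExpr by group, scaled with TMM and fitted with 1 quasi-likelihood model over 12 livers in R 4.3.3. Tests were two-sided with Benjamini-Hochberg adjustment over 22581 genes, and called means an FDR under 0.05. DESeq2 1.42.0 was the alternative. The scripts were tested on simulated counts. log2 CPM carries a prior count of 2, and RPKM is CPM per kilobase of merged exons. Sample groups came from the labels. At the depths given above, a value's spread comes mainly from differences between livers (biological coefficient of variation 0.214).

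The members and gene lists were chosen with earlier results of these data known. Named by rule were the members, every tested gene of the CoA synthesis, degradation and transport lists, up to 2 rises and 2 falls per other list in vehicle against control, and the genes most like each member (5 for Nudt7, 3 for others). Alternatives were other scaling, filters, 2-group fits, a replicate block and leaving out livers. DESeq2 without vehicle 3 and hAAM 4 was added after seeing the data. Of the genes the rule names, 2 are not reported here, and counts over lists include them.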

Additional observations from a re-analysis of the deposited data

Results flagged for a closer look

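In 1 of 44 sets of livers examined (each CoA gene reported here, in the vehicle and the hAAM group), 1 liver lay apart by Dixon's criterion, which chance meets in about 1 in 20 sets. Nudt7 in vehicle 3 was 106 CPM, against 26.3 to 43.2 CPM in the other 4 vehicle livers. Vehicle 3 is one of the near-identical libraries, and hAAM 4 measured 117 CPM.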

How the results depend on the processing

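In every fit run, Nudt7 was below control and was higher in hAAM than in vehicle livers. With each liver left out in turn, its log2 difference was -3.67 to -3 in vehicle and -2.14 to -1.91 in hAAM livers against control, and 0.97 to 1.63 between treatments. Leaving out 1 liver gave 4633 to 7197 called genes for vehicle against control (6719 with all livers), 2419 to 5456 for hAAM against control (4666) and 0 to 1 for hAAM against vehicle (0). The members called were 1 to 4, 1 to 3 and 0 to 1. Without control 1 or control 3, Nudt7 was the 1 member called against control. The counts of called genes in the CoA and peroxisome lists were lowest mainly when control 1 or control 3 was left out. CoA synthesis had 0 to 4 calls in vehicle livers (4 with all livers, 0 without control 3) and 0 to 3 in hAAM livers (3, and 0 without control 1). Peroxisomal beta-oxidation had 3 to 7 and 0 to 5, and peroxisome biogenesis 4 to 6 and 2 to 5. Scaling by library size alone called 2 members in each comparison with control and 7340 genes in hAAM against control. It put the median of all genes at 0.36 and 0.32, against 0.01 and 0.02, made 88.6% and 89.4% of calls higher ones, against 50.3% and 51.8%, and ended the calls of Pank1 and Coasy. It took the calls among peroxisome biogenesis genes from 6 and 5 to 3 and 2, among other Nudix hydrolases from 5 and 4 to 11 and 7, among mitochondrial beta-oxidation genes from 1 and 1 to 2 and 0, and among CoA transport genes in hAAM livers from 1 to 3. Among PPARα targets 4 rose and 2 fell in vehicle livers, against 1 and 3. Falls were also fewer among acyl-CoA synthetases (4 and 1, against 6 and 2), acetyl-CoA genes (3 and 2, against 5 and 3) and peroxisomal beta-oxidation genes (3 and 1, against 5 and 2). The calls of Enpp3, Baat and Scp2 in hAAM livers were also lost (FDR 0.171, 0.128 and 0.0705). Fitting only the 2 groups compared gave 2729 genes and 1 member in hAAM against control. DESeq2 called 1 gene between treatments, and 88 genes and 1 member without vehicle 3 and hAAM 4. The cause of these shifts was not tested.

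Replicate numbers are shared between groups but do not pair the livers: 2 of 10 same-number pairs had a correlation of deviations over 0.1, with a range of -0.46 to 0.38. A replicate block gave 4253 genes (vehicle against control), 2959 genes and 2 members (hAAM against control), and a Nudt7 difference of 1.1 between treatments.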
